A study of Mus musculus with 10 samples.

Results

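The IGHV2 family of mouse immunoglobulin heavy chain V genes, also called Q52, was described in peritoneal B-1a cells. Its members here were the 9 genes IGHV2-2, IGHV2-3, IGHV2-4, IGHV2-5, IGHV2-6, IGHV2-6-8, IGHV2-7, IGHV2-9 and IGHV2-9-1. A clonotype is 1 joined V, D and J with the amino acids of its CDR3, and it has a count of reads. It was taken as a member's only if that gene was its single listed V gene. This gave 1119 of 195529 clonotypes over 4 libraries, with 270 and 249 in the 2 wild-type and 316 and 284 in the 2 Igll1-/- libraries. B-1a cells were sorted out of the peritoneum of C57BL/6 mice, 6 to 8 weeks old, and gave 2 libraries from wild-type (WT) and 2 from Igll1-/- animals. Igll1-/- mice lack λ5, a component of the surrogate light chain, in every cell, and the labels name no treatment. The labels do not say how many mice stand behind a library, so p-values measure only the spread between these libraries, which may be technical. Rearranged loci were amplified from genomic DNA with primers in framework region 3 and J, and products of 120 to 280 bp were kept.

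An antibody heavy chain variable region is joined from a V, a D and a J gene segment, and the CDR3 loop at their junction is the most variable part of the antigen-binding site. Before a B cell has a light chain, a new heavy chain is tested by pairing with the surrogate light chain as the pre-B cell receptor, which Igll1-/- cells cannot form. IGHV2 genes lie next to the D segments, interleaved with IGHV5 genes, and genes at this end of the locus are known to be rearranged often in early life, when most B-1a cells arise. On chromosome 12, in the RefSeq table of the C57BL/6J assembly, IGHV2-2 was the fourth Ighv gene or pseudogene counted from the D side and IGHV2-3 the eighth. IGHV2-9, the farthest member, was number 31 of 183.

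The largest clonotype of a member, by reads, is described first because single clonotypes held many of a member's reads. In IGHV2-2 it had a CDR3 of 16 amino acids and 63 reads in WT replicate 1, and one of 18 amino acids and 38 reads in WT replicate 2. In the Igll1-/- libraries the largest IGHV2-2 clonotypes had 15 amino acids and 880 reads, and 17 amino acids and 984 reads. All 4 joined IGHJ4, by way of IGHD2-1 in WT replicate 1 and of IGHD1-1 elsewhere. In IGHV2-3 the largest clonotypes had CDR3s of 16, 17, 14 and 15 amino acids and 31, 28, 252 and 45 reads, in the order WT replicates 1 and 2 and Igll1-/- replicates 1 and 2. They used IGHJ4 except in Igll1-/- replicate 1, where the clonotype of 252 reads joined IGHD1-1 to IGHJ2. In IGHV2-4 the largest had 1, 60, 560 and 177 reads in the same order of libraries. Those of 60 and 560 reads joined IGHJ4 with 14 and 16 amino acids, and that of 177 reads joined IGHD4-1 to IGHJ1 with only 10 amino acids.

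The libraries held between 32386 and 58205 clonotypes and between 180593 and 285517 reads, and 3 clonotypes of a library are 0.00515% to 0.00926% of it. Counts of reads carry no molecular barcode, so intervals on shares are Wilson 95% intervals that cover counting error only. Replicates differed beyond sampling noise (chi-square over V genes of 3504 on 134 and 3471 on 131 degrees of freedom) and were kept apart. The B-1a label was checked with IGHV12-3 and IGHV11-2, whose phosphatidylcholine-binding heavy chains are typical of these cells. IGHV12-3 held 4.32% to 5.09% of the clonotypes of a library, and IGHV11-2 held 2.99% and 4.79% in WT against 0.821% and 0.960% in Igll1-/- libraries.

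IGHV2-3 and IGHV2-2 made up most of the family. IGHV2-3 had 175 and 119 clonotypes in WT and 223 and 128 in Igll1-/- libraries. These were 0.317%, 0.239%, 0.689% and 0.220% of all clonotypes, so that Igll1-/- replicate 1 stood above the other libraries and the genotypes overlapped. IGHV2-2 had 69 and 51 clonotypes in WT and 77 and 99 in Igll1-/- libraries, or 0.125%, 0.102%, 0.238% and 0.170%, and here the Igll1-/- values both exceeded the WT values. Both genes together held between 68.3% and 94.9% of the family's clonotypes. IGHV2-3 was above IGHV2-2 in each of the 4 libraries, but in Igll1-/- replicate 2 their intervals (0.185% to 0.261% and 0.140% to 0.207%) overlapped.

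The other members were rare. IGHV2-6 had 16 and 47 clonotypes in WT and 12 and 29 in Igll1-/- libraries. IGHV2-9 had 6 and 28 in WT and 1 and 19 in Igll1-/- libraries. Both genes were thus higher in the second replicate of either genotype, and the genotypes overlapped. IGHV2-4 had 1, 4, 3 and 6 clonotypes in WT replicates 1 and 2 and Igll1-/- replicates 1 and 2, and IGHV2-6, IGHV2-9 and IGHV2-4 could not all be ordered within a library beyond their intervals. IGHV2-7 had 3 clonotypes in WT replicate 1 only, and IGHV2-9-1 had 3 in Igll1-/- replicate 2 only, counts that are at the limit that 0 clonotypes allow. IGHV2-5 and IGHV2-6-8 had 0 clonotypes as a single listed gene, which allows a share of up to 0.00926% in the smallest library. They did occur among the listed alleles of other rows, IGHV2-5 in 31 to 103 and IGHV2-6-8 in 21 to 136 clonotypes of a library.

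**Figure D1:**
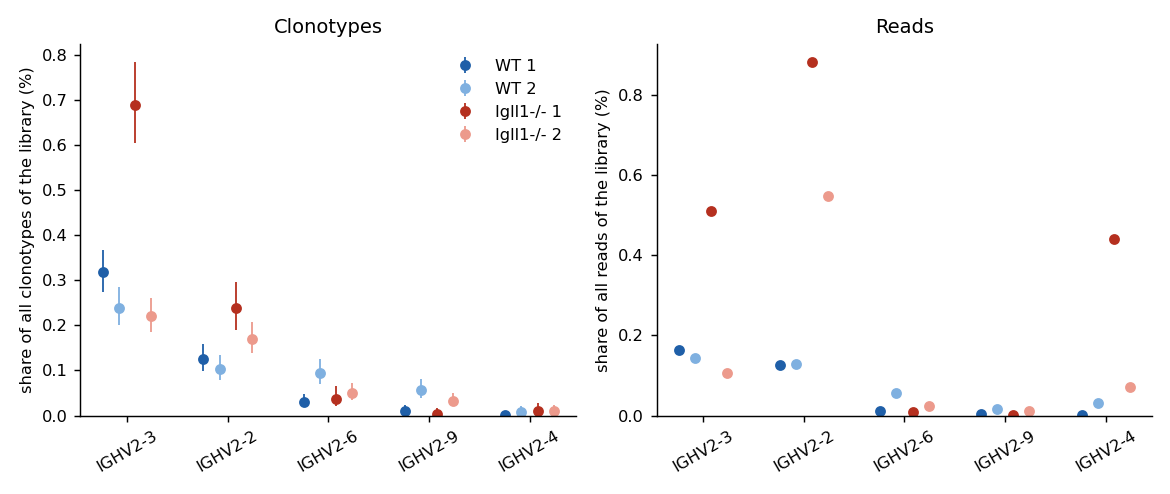
Share of all clonotypes (left, with Wilson 95% intervals) and of all reads (right) of each library on the 5 IGHV2 members found in every library, 1 point per library. By clonotypes IGHV2-3 led in each library, and by reads IGHV2-2 led in both Igll1-/- libraries with 0.882% and 0.547%.

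The V genes most like IGHV2-3 in level were found by the largest absolute log2 ratio of shares of clonotypes over the 4 libraries. They were IGHV1-56 (0.81), IGHV1-77 (0.92) and IGHV1-84 (1.26). IGHV1-56, like IGHV2-3, was highest in Igll1-/- replicate 1, at 1.21% against 0.221% to 0.333% in the other libraries.

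Whether usage of a V gene depends on the pre-B cell receptor is the question that the comparison of genotypes addresses. No member passed it. The family as a whole held 0.490% and 0.4999% of clonotypes in WT and 0.976% and 0.488% in Igll1-/- libraries, a mean difference of 0.237 percentage points (exact permutation test, two-sided, p = 1). Igll1-/- replicate 1 decided that difference, since without it the Igll1-/- minus WT value was −0.0069 percentage points. By reads the family held 0.305% and 0.374% in WT and 1.84% and 0.762% in Igll1-/- libraries, without overlap (difference 0.964 percentage points, exact permutation p = 0.333). With 2 libraries against 2 an exact permutation test cannot go below p = 0.333. Of the 9 members, 4 had at least 10 clonotypes in at least 2 libraries and entered edgeR's quasi-likelihood test over 91 V genes. Of these 4, 0 passed an adjusted p of 0.05 and 0 an unadjusted p of 0.05, against 0.0% and 8.79% of all V genes tested. DESeq2 called 0 of the 4 at an adjusted p of 0.05, against 1.1% of all V genes. IGHV2-2 had a log2 fold change of 0.84 ± 0.48 (SE, edgeR adjusted p = 0.599), and IGHV2-3 one of 0.70 ± 0.68 (adjusted p = 0.755). IGHV2-6 and IGHV2-9 had log2 fold changes of −0.49 ± 0.73 and −0.79 ± 1.20 (SE, edgeR adjusted p = 0.814 for both). Of the V genes tested, 17.6% were, like IGHV2-2, higher in both Igll1-/- libraries and 19.8%, but no member, were lower in both.

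By reads the picture differed for IGHV2-2 and IGHV2-4. IGHV2-2 had 273 and 274 reads in WT and 1593 and 1562 in Igll1-/- libraries, which is 0.126% and 0.129% against 0.882% and 0.547% of all reads. Its largest clonotype held 55.2% and 63.0% of its reads in the Igll1-/- libraries and 23.1% and 13.9% in WT. Without that clonotype IGHV2-2 still had 0.395% and 0.202% of reads in Igll1-/- against 0.0972% and 0.111% in WT libraries, so the genotypes did not overlap either way. The log2 fold change in reads was 2.48 ± 0.56 (SE, edgeR adjusted p = 0.146, unadjusted p = 0.00437), and 1.52 ± 0.69 (adjusted p = 0.356) with the largest clonotype of each V gene in each library removed. IGHV2-4 had 1 and 65 reads in WT and 794 and 201 in Igll1-/- libraries, on only 14 clonotypes in all. Its largest clonotype carried 560 of the 794 reads in Igll1-/- replicate 1 and 177 of the 201 in replicate 2. Its log2 fold change was 4.03 ± 1.86 (SE, edgeR adjusted p = 0.481). Without its largest clonotype in each library, IGHV2-4 had 0 and 5 reads in WT and 234 and 24 in Igll1-/- libraries. It then met the filter on low counts only through the Igll1-/- libraries. Its log2 fold change of 5.81 in that fit is therefore not read as a difference. Leaving out 1 library, the value for all reads ran from 2.18 without Igll1-/- replicate 1 to 8.94 without WT replicate 2. In the latter fit the filter was again met only through the Igll1-/- libraries. IGHV2-3 had 352, 304, 922 and 306 reads, with Igll1-/- replicate 1 again above the other 3 libraries.

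Of the 5 members tested by reads, 0 passed an adjusted p of 0.05 and 1, IGHV2-2, an unadjusted p of 0.05, against 1.0% and 12% of the 100 V genes tested. The 2 members whose share of reads was higher in both Igll1-/- libraries, IGHV2-2 and IGHV2-4, stand against 21.0% of all V genes tested, and 19.0% but no member were lower in both. Without Igll1-/- replicate 2, IGHV2-2 (log2 fold change 2.79, edgeR adjusted p = 0.00036), IGHV2-4 (4.82, adjusted p = 7.57e-05) and IGHV2-3 (1.74, adjusted p = 0.047) passed, as did 19.1% of the 94 V genes tested in that fit, in which a lone Igll1-/- library was assumed to vary as the WT libraries do. A read count mixes the number of cells with amplification, and the part of each was not tested.

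**Figure D2:**
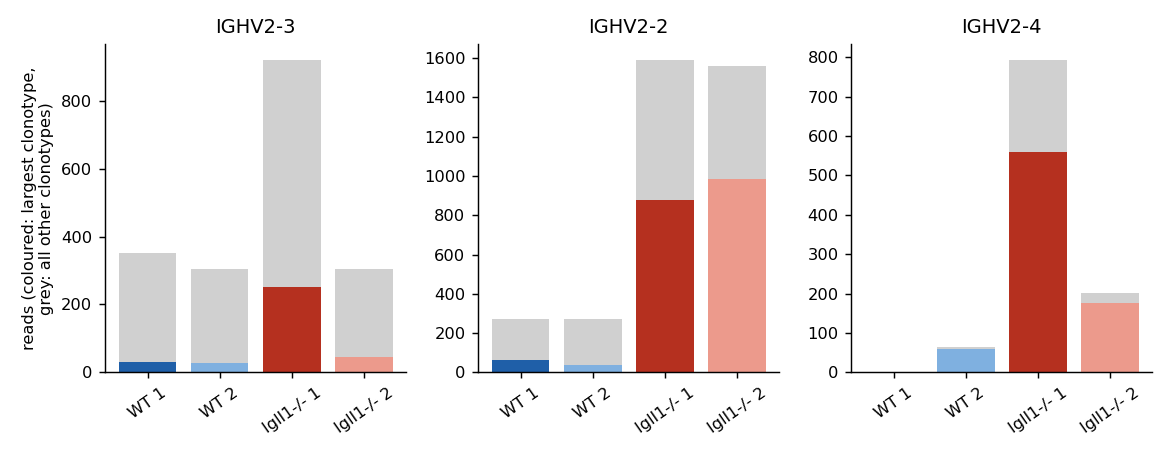
Reads of IGHV2-3, IGHV2-2 and IGHV2-4 in each library (bars, each panel with its own axis), split into the largest clonotype (coloured) and all others (grey). The largest IGHV2-2 clonotype alone had 880 and 984 reads in the Igll1-/- libraries and at most 63 in a WT library.

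The CDR3s of the family were long, and this cannot be read apart from the length of the sequences in the tables. Mean CDR3 length over productive clonotypes was 14.16 and 13.97 amino acids in WT and 15.3 and 14.4 in Igll1-/- libraries. Other V genes had means of 10.4 to 10.8 in the same libraries, so the family was longer by 3.87 ± 0.68 amino acids (SD, n = 4) and longer in 4 of 4 libraries (exact sign-flip test, p = 0.125, the smallest that 4 libraries can give). Within each J gene the order was the same: in IGHJ4 rearrangements of at most 30 amino acids the family had means of 14.6 to 15.4 and the other V genes of 11.5 to 12.1. However, no sequence in any table was shorter than 151 nt. Outside its CDR3 the commonest IGHV2-3 sequence held 110 nt with IGHJ2 or IGHJ3 and 106 nt with IGHJ1 or IGHJ4. A sequence of this kind reaches 151 nt only with a CDR3 of at least 14 or 15 amino acids. The corresponding sequences held 129 to 133 nt for IGHV5-17, for which a CDR3 of 6 to 8 amino acids is enough, and 141 to 145 nt for IGHV1-19.

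Between 63.1% and 72.2% of the family's clonotypes were under 160 nt, against 7.97% to 11.7% of those of other V genes. Among productive clonotypes with a CDR3 of 15 to 30 amino acids, which the 151 nt limit does not cut for IGHV2-3, mean lengths were 15.9, 16.4, 16.2 and 16.3 in the family and 15.9, 16.1, 15.9 and 16.1 in other V genes. The 121 family clonotypes with a sequence of 200 nt or more, 10.8% of the family, had a median CDR3 of 12 amino acids, and the 998 shorter sequences one of 15. IGHV2-2 had a shorter median CDR3 (14 amino acids in each library) than IGHV2-3 (15 in each), and IGHV2-9 a median of 7 to 12. In sequences under 200 nt that matched their germline V gene at 95% or more, the order was reversed, with medians of 16 in IGHV2-2 and 15 in IGHV2-3. IGHV2-2 sequences below 95% had a median CDR3 of 13 amino acids, and a median of 120 nt outside it against 108 nt. Shares of IGHV2-3 are thus shares of the rearrangements that pass the 151 nt limit. The limit bears on other members too. At 95% identity or more, sequences under 200 nt held a median of 108 nt outside the CDR3 in IGHV2-2. This median was 110 nt in both IGHV2-6 and IGHV2-3. The range of 15 to 30 amino acids was set by IGHV2-3, and whether the limit cuts the other members within it was not tested. Between genotypes the mean CDR3 length of the family differed by 0.765 amino acids (Igll1-/- minus WT, exact permutation p = 0.333), and by −1.10 among clonotypes of at least 10 reads.

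**Figure D3:**
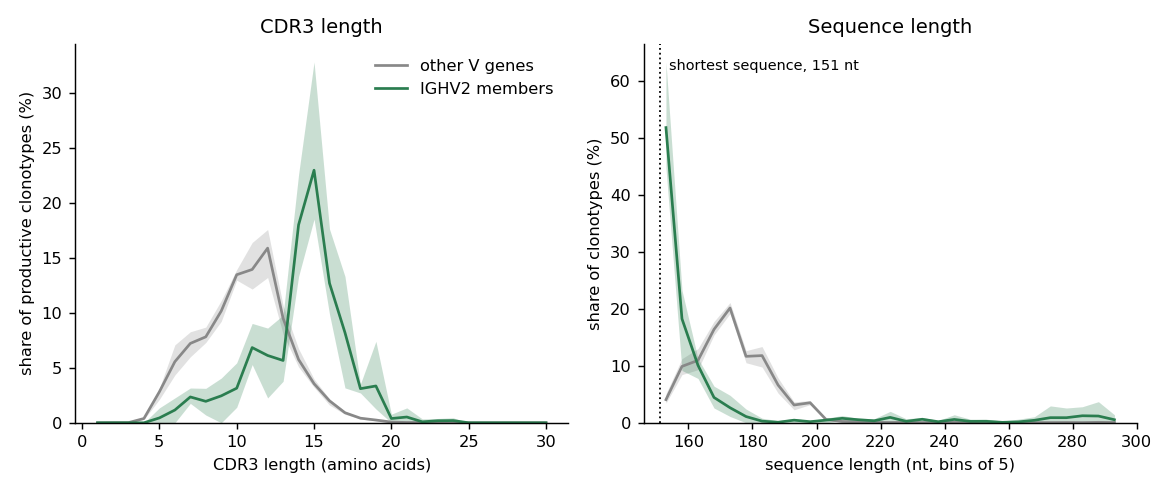
Left, CDR3 length of productive clonotypes of at most 30 amino acids, and right, sequence length in bins of 5 nt, for IGHV2 members (green) and all other V genes (grey). Lines are means of 4 libraries and bands run from the lowest to the highest library. The family's sequences pile up at the 151 nt limit (dotted), and its CDR3s at 14 to 16 amino acids.

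The family was joined to IGHJ4, the J segment farthest from the D genes, much more often than other V genes were. IGHJ4 was used by 44.4% and 53.4% of its clonotypes in WT and by 54.1% and 47.2% in Igll1-/- libraries. In the other V genes these shares were 17.8%, 17.8%, 17.6% and 19.5%, and IGHV5 and IGHV1 taken alone lay between 17.4% and 21.4%. The family was higher by 31.6 ± 5.2 percentage points (SD, n = 4) and in 4 of 4 libraries (exact sign-flip test, p = 0.125, adjusted p = 0.156 over 10 measures). For IGHJ2, the most used J segment elsewhere, the difference from other V genes was −22.2 ± 2.2 percentage points and for IGHJ3 −7.91 ± 3.21, negative in 4 of 4 libraries each. For IGHJ1 it was −1.49 ± 5.56 percentage points, within its spread.

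IGHJ4 can add more residues to a CDR3 than IGHJ2 or IGHJ3, so the share was also taken among CDR3s of 15 to 30 amino acids only, where the length limit does not cut IGHV2-3. There IGHJ4 held 59.7%, 72.9%, 73.7% and 68.1% of the family and 40.6%, 36.3%, 43.6% and 39.3% of the other V genes. The difference was 28.6 ± 7.2 percentage points (SD, n = 4) and present in 4 of 4 libraries (exact sign-flip test, p = 0.125). In CDR3s of 14 or fewer amino acids the shares were 27.7% to 32.8% in the family and 15.5% to 18.0% elsewhere. Length was not matched in this range. Productive CDR3s there had means of 11.3 to 12.7 amino acids in the family and 9.91 to 10.4 elsewhere. Among unproductive clonotypes, 26 to 30 per library in the family, 30.8% to 38.5% used IGHJ4 against 16.3% to 21.8% in other V genes.

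Over the 78 V genes with at least 100 clonotypes in the 4 libraries together, the 5 highest IGHJ4 shares all belonged to IGHV2 genes: IGHV2-9-2 (63.7%), IGHV2-6 (56.7%), IGHV2-2 (51.4%), IGHV2-6-7 (50.1%) and IGHV2-3 (48.7%). IGHV2-9-2 and IGHV2-6-7 are not among the 9 members, and no other member reached 100 clonotypes. IGHV2-9 used IGHJ4 in 4 of 6, 14 of 28, 0 of 1 and 6 of 19 clonotypes, and IGHV2-4 in 0 of 1, 3 of 4, 2 of 3 and 2 of 6, in the order WT replicates 1 and 2 and Igll1-/- replicates 1 and 2. Of the 3 clonotypes of IGHV2-7, 0 used it, and of the 3 of IGHV2-9-1, 2 did. The next gene, IGHV1-21-1, had 29.8%. In CDR3s of 15 to 30 amino acids, 54 V genes with at least 50 such clonotypes were ranked. IGHV2-9-2 (77.0%), IGHV2-2 (68.5%) and IGHV2-3 (68.3%) led, closely followed by IGHV1-36 (67.1%) and then by IGHV9-4 (56.0%). IGHV2-6-7 (54.2%) was in place 6, and IGHV2-6 had too few such clonotypes to be ranked. IGHV2-2 ran from 43.4% to 66.2% over the libraries and was highest in Igll1-/- replicate 1. Between genotypes IGHJ4 differed by 1.72 percentage points (exact permutation p = 0.667), and the only J segments whose genotypes did not overlap were IGHJ1, at 19.3% and 12.4% in WT against 8.54% and 10.9% in Igll1-/- libraries, and IGHJ2 (p = 0.333 for each, adjusted p = 0.667 over 4). In the other V genes IGHJ1 was likewise at 13.5% and 19.3% in WT against 13.1% and 11.1% in Igll1-/- libraries. IGHJ2, higher in both Igll1-/- libraries in the family, was lower there in the other V genes (44.4% and 44.6% against 43.7% and 43.2%). This contrast was not tested, and IGHJ3 did not overlap in the other V genes either. Within the family, IGHV2-3 and IGHV2-2 differed in the direction of IGHJ2. It held 20% and 19.3% of IGHV2-3 clonotypes in WT against 27.4% and 28.9% in Igll1-/- libraries. Of IGHV2-2 clonotypes it held 27.5% and 35.3% in WT against 14.3% and 18.2% in Igll1-/- libraries. In IGHV2-6, IGHV2-9 and IGHV2-4 the genotypes overlapped in IGHJ2.

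**Figure D4:**
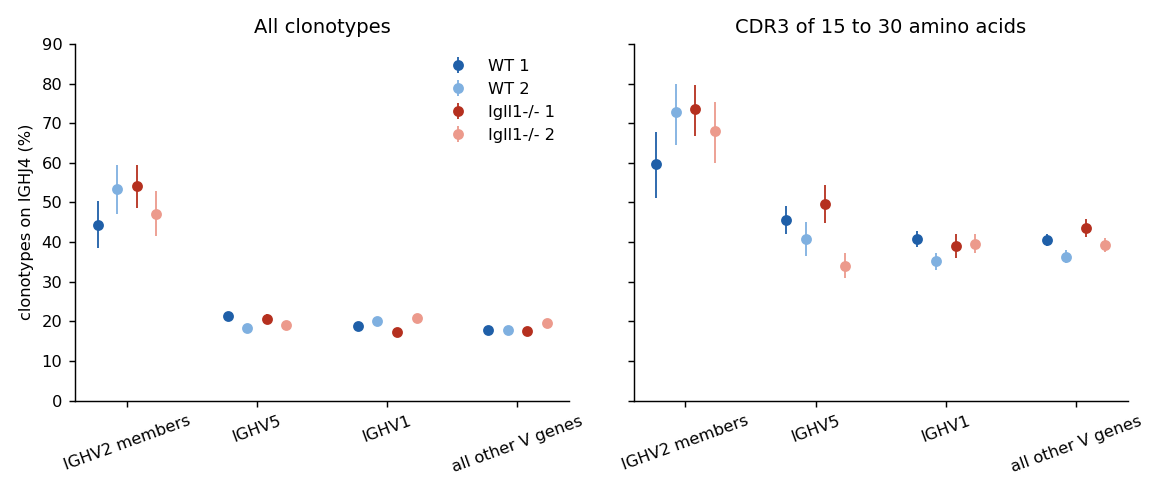
Share of clonotypes on IGHJ4 for IGHV2 members, IGHV5, IGHV1 and all other V genes, 1 point per library with its Wilson 95% interval, over all clonotypes (left) and those with a CDR3 of 15 to 30 amino acids (right). The family lies at 44.4% to 54.1% on the left and 59.7% to 73.7% on the right, above the comparison groups in each library.

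The family also used D segments differently, but the difference in IGHD1 was not seen among long CDR3s. Of clonotypes with 1 listed D gene, 45.9% to 52.1% of the family used an IGHD1 gene, nearly all of them IGHD1-1, against 33.9% to 37.0% of other V genes. The difference was 14.3 ± 3.7 percentage points (SD, n = 4, exact sign-flip test, p = 0.125) in 4 of 4 libraries. Among CDR3s of 15 to 30 amino acids it was −0.595 ± 7.30 percentage points, with 2 libraries on either side of 0. For IGHD4, the shortest D segment, the difference over all CDR3s was −5.91 ± 1.71 percentage points, and for IGHD3 −5.36 ± 0.85. IGHD2, the family with most D genes, differed by −1.69 ± 2.94. The core of IGHD1-1 read in its commonest frame (YYGSS) was in 22.5%, 29.3%, 31.0% and 17.4% of the family's productive CDR3s and in 7.10% to 7.99% of those of other V genes. The IGHJ4 end YAMDY was in 37.9% to 47.8% of them and in 11.5% to 12.5% elsewhere. Both motifs were chosen after the sequences were seen. Between genotypes the only D family without overlap was IGHD3, at 5.02% and 3.33% in WT against 2.22% and 1.80% in Igll1-/- libraries (exact permutation p = 0.333, adjusted p = 1 over 4). The other V genes did not overlap in IGHD3 either, at 9.26% and 9.50% against 8.05% and 6.98%.

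The first residues of a CDR3 come from the V gene. In IGHV2-3, 83.0% and 63.7% of productive CDR3s in WT and 86.3% and 83.0% in Igll1-/- libraries began with alanine and lysine (AK). V genes other than the 9 members had 1.04% to 1.69%. IGHV2-9 began so in 3 of 4 and 19 of 25 productive CDR3s in WT and 0 of 1 and 12 of 19 in Igll1-/- libraries. IGHV2-4 did in 0 of 1, 4 of 4, 2 of 2 and 2 of 6, in the same order. Shares per library were 6.67% to 34.1% in IGHV2-6 and 1.09% to 2.13% in IGHV2-2. In IGHV2-2, 31.9% of productive CDR3s in Igll1-/- replicate 1 began with alanine and serine (AS), against 7.61% to 14.9% in the other libraries. The IGHV2-2 clonotype of 880 reads in that library begins with AS. After near-identical clonotypes were merged, the family kept 212 of 316 clonotypes in that library. It kept 253 of 284 in Igll1-/- replicate 2 and 257 of 270 and 233 of 249 in WT replicates 1 and 2. Over all V genes, merging removed 15.4%, 16.8%, 9.69% and 13.9% of clonotypes, in the same order of libraries. The family's share in Igll1-/- replicate 1 went from 0.976% to 0.774%, against 0.516% to 0.543% in the other libraries after merging.

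A clonotype was productive in 88.9% and 89.2% of the family's cases in WT and in 91.8% and 90.8% in Igll1-/- libraries. The other V genes of the same libraries had 92.1%, 92.7%, 93.5% and 93.6%. The family minus other V genes was −2.81 ± 0.79 percentage points (SD, n = 4), negative in 4 of 4 libraries (exact sign-flip test, p = 0.125), but among CDR3s of 15 to 30 amino acids it was higher by 3.51 ± 3.08. IGHV2-3 had the lower values, from 85.7% to 91.5%, and IGHV2-2 the higher, from 92.2% to 94.2%. Between genotypes the family differed by 2.29 percentage points (Igll1-/- minus WT, exact permutation p = 0.333). IGHV2-3 was the only member with enough productive and other clonotypes for a test of the productive share by genotype. Its interaction term was 0.44 ± 0.42 on the log2 scale (SE, edgeR adjusted p = 0.644, unadjusted p = 0.322), in a fit in which 0.0% of 56 V genes passed and 12.5% had an unadjusted p under 0.05.

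How firmly a clonotype was assigned differed between members. IGHV2-3 clonotypes matched their germline gene at 100% in 75% to 86.1% of cases per library, IGHV2-2 in 27.3% to 31.9%. All IGHV2-9 and IGHV2-4 clonotypes were below 95% identity, with medians of 88.9% and of 89.7% to 91.0%. So were 33 of 69 and 36 of 51 IGHV2-2 clonotypes in WT and 45 of 77 and 59 of 99 in Igll1-/- libraries. In sequences under 200 nt, IGHV2-2 used IGHJ4 in 63.5% at 95% identity or more and in 42.1% below. For IGHV2-3 these shares were 53.3% and 27.5%. Each of the 104 IGHV2-6 clonotypes listed alleles of other genes besides IGHV2-6, although its gene column gave that gene alone. For 68.8% to 100% of the IGHV2-6 and 50% to 100% of the IGHV2-9 clonotypes of a library, the same CDR3 and J segment had more reads under another V name in the same library. For IGHV2-3 this was 8.52% to 23.5%, for IGHV2-2 11.6% to 33.3%, and for all other V genes 20.8% to 40.8%.

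Of the 76 family CDR3s with a clonotype of at least 10 reads, 73 also stood under another V name in their library, or 96.1%, against 85.3% of 5790 in other V genes. In WT replicate 1 the family was not higher, at 72.7% of 11 against 74.0%. In the remaining libraries it was at 100% against 88.0% to 92.3%. The CDR3 of 10 amino acids that was the largest of IGHV2-4 in Igll1-/- replicate 2 stood under 71 V names there with 1114 reads in all. Of these reads 177 were on IGHV2-4, more than on any other V name.

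Few family CDR3s were found in more than 1 library. Of 1022 combinations of V gene, J gene and CDR3, 963 were in 1 library, 42 in 2, 13 in 3 and 4 in all 4. IGHV2-3 held 43 of the 59 combinations found in at least 2 libraries, IGHV2-2 10, IGHV2-6 5 and IGHV2-9 1. Pairs of libraries shared between 10 and 28 combinations, most often WT replicate 1 with Igll1-/- replicate 2 (10.4% and 10.1% of their combinations). Both WT libraries shared 14 and both Igll1-/- libraries 14 of them. All 4 combinations found in every library were of IGHV2-3, and their CDR3s were 14 to 19 amino acids long. The one on IGHJ2 had 7, 2, 5 and 2 reads, the one on IGHJ3 1, 1, 2 and 3, and those on IGHJ4 16, 2, 2 and 5 and 3, 1, 1 and 1, in the order WT replicates 1 and 2 and Igll1-/- replicates 1 and 2. None was the largest IGHV2-3 clonotype of a library. The one of 16 reads was among 5 IGHV2-3 clonotypes with at least 10 reads in WT replicate 1, where the largest had 31. Among those in 3 libraries, the IGHV2-3 and IGHJ2 combination of 14 amino acids described above had 254 reads in Igll1-/- replicate 1, where several rows held it, and 3 and 2 in WT replicate 1 and Igll1-/- replicate 2. One of IGHV2-3 and IGHJ4, of 15 amino acids, had 124 reads in Igll1-/- replicate 1 and 1 in each of WT replicate 2 and Igll1-/- replicate 2. The most read one of IGHV2-2 in 3 libraries, of 14 amino acids and on IGHJ4, had 7 reads in WT replicate 1, 74 in Igll1-/- replicate 1 and 11 in Igll1-/- replicate 2. Whether recurrent sequences come from separate cells or from reads carried between libraries was not tested.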

How the data were processed

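Rearranged Igh loci of 4 B-1a libraries were analysed. Per the deposited tables and the study's methods, the authors sequenced the PCR products, annotated them with IMGT/HighV-QUEST and wrote 1 row per clonotype with its read count, its V identity as a percent and its sequence length. The genome build is not given in the sources used here. The light chain tables were not used here. Clonotypes listed with several V genes (14.3% to 21.3% of a library) stayed in the totals. The 9 members, the gene lists and the tests were chosen with earlier results of these data known. All members, the 3 V genes most like the commonest member, IGHV12-3 and IGHV11-2, the largest clonotypes and those in 4 libraries were named. V genes that reached 10 clonotypes in 2 or more libraries were tested with edgeR 4.0.16 (quasi-likelihood, total clonotypes as library size, Benjamini-Hochberg, threshold 0.05) in R 4.3.3, with DESeq2 1.42.0 as an alternative. This test was tried on simulated counts with a preset spread, which does not show its power or error at the spread of these libraries. Shares, lengths and differences were computed in Python with exact permutation (2 against 2) or sign-flip tests. Near-identical clonotypes had the same V, J and CDR3 length, 1 residue changed and at least 10 times fewer reads.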

Additional observations from a re-analysis of the deposited data

Results flagged for a closer look

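Clonotypes of other IGHV2 labels lay outside the comparisons. Over the 4 libraries 546 clonotypes had as their single V gene an IGHV2 gene that is not one of the 9 members, namely 159 and 107 in WT and 73 and 207 in Igll1-/- libraries. Of these, 369 were IGHV2-6-7 and 146 IGHV2-9-2, and neither name is in the RefSeq table of the C57BL/6J assembly. A further 807 clonotypes were listed with several IGHV2 genes, 149 and 242 in WT and 142 and 274 in Igll1-/- libraries. The 9 members thus held 37.1% to 59.5% of all clonotypes with IGHV2 names in a library. Each of these counts is above the 3 clonotypes that a count of 0 allows.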

How the results depend on the processing

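Of 288 recomputed values over 21 results, 253 kept their direction or stayed the same. These 253 include the count of members that passed under each of the 17 alternatives for usage, which has no direction and stayed at 0. The fit to reads without Igll1-/- replicate 2 is given with that comparison. With at least 10 reads, IGHV2-3, IGHV2-6 and IGHV2-9 had too few clonotypes to test, IGHV2-9 also with at least 2 reads, and the productive share by genotype of IGHV2-3 gave no value under either. With the replicate block, the log2 fold change of IGHV2-2 became 0.83 (adjusted p = 0.740 by edgeR) and no member passed. Same-numbered libraries deviated together at r = 0.32 over 91 V genes, which with 2 pairs does not show that the numbers pair them. Differences below are Igll1-/- minus WT in percentage points unless said otherwise.

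Counting reads turned IGHJ2 to −3.25, IGHJ3 to −5.61, IGHD2 to −13.2 and IGHD4 to 1.12, and the productive share of the family against other V genes to 2.43. With at least 10 reads per clonotype (11 to 28 family clonotypes a library) the productive share went to −1.07, CDR3 length to −1.10 amino acids, IGHJ4 to −11.6, IGHD1 to −8.46, IGHD3 to 0, IGHD4 to 2.63 and the productive share against other V genes to 2.01. With at least 2 reads IGHJ4 went to −0.429 and IGHD1 to −1.14. Merging gave −0.0739 for IGHJ2, −1.57 for IGHJ4 and −1.46 for IGHD1. Adding clonotypes of several IGHV2 genes gave −1.63 for IGHJ2 and −0.312 for IGHD1. Productive clonotypes only gave −1.93 for IGHD1. Alternatives chosen after seeing the data gave −0.103 for the productive share (identity of at least 95%), −0.234 for IGHD1 (CDR3 of at most 30) and, for CDR3s of 15 to 30, −0.306 for IGHJ2, 3.51 for the productive share and −0.595 for IGHD1 against other V genes.

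Leaving out 1 library at a time, the family share ran from −0.0069 to 0.481, productive share from 1.82 to 2.75, CDR3 length from 0.300 to 1.23 amino acids, IGHJ3 from −0.396 to 4.38, IGHJ4 from −2.77 to 6.20, IGHD1 from −2.47 to 3.67, IGHD2 from −0.808 to 8.53 and IGHD4 from −4.21 to 0.202. The log2 fold changes ran from −0.34 to 1.31 for IGHV2-3 and from −1.11 to 0.58 for IGHV2-6. These reversals are of values that passed no test, and their cause was not tested. The differences in IGHJ4 and CDR3 length between the family and other V genes kept their direction throughout. However, that in CDR3 length went from 3.87 amino acids to 0.173 (lowest library 0.00928) among CDR3s of 15 to 30. The family had 249 to 316 clonotypes a library, and 2 libraries per genotype limit each comparison of genotypes.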
